A study of Arabidopsis thaliana with 22 samples.

Results

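The genes *CCA1*, *LHY*, *GI* and *PRR3* belong to the circadian clock of *Arabidopsis thaliana*, and their mRNAs were followed on ATH1 arrays in the *pab2 pab8* mutant and in wild-type seedlings. Each gene was measured by 1 probe set, so the 4 genes are 4 of the 22746 *Arabidopsis* probe sets on the array. The array annotation names the probe set of *GI* (AT1G22770, 264211_at). Those of *CCA1* (AT2G46830, 266719_at), *LHY* (AT1G01060, 261569_at) and *PRR3* (AT5G60100, 247668_at) were named through gene tables of the study. *CCA1* stands in the table of genes that changed in *pab2 pab8* itself, which was made from these arrays, so its change in total RNA is not independent evidence. *LHY* and *PRR3* were named from tables of other mutants of the study.

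The mutant carries T-DNA insertions in *PAB2* and *PAB8*, which encode poly(A) binding proteins of the seedling, in the Columbia ecotype, and the wild-type was Columbia as well. Both genotypes were grown side by side for 10 to 12 days on Murashige and Skoog agar with 1% sucrose, at 22°C in continuous light of 80 micromole per square metre and second. Aerial parts were harvested, and each of 4 biological replicates, grown at different times, was split on a sucrose gradient into polysomal RNA (PL) and non-polysomal RNA (NP), where NP also holds mRNAs with a single ribosome. Replicates 1 to 3 also gave total RNA, which makes 22 arrays. The hour of harvest of these plants is not given in the sources used here, so its part in any difference below was not tested. From clock gene mRNA levels, the paper reports similar clock entrainment in continuous-light plants and in its *rpl24b* plants, which had light and dark cycles. It gives no values by genotype or replicate for this.

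The plant clock is a set of transcriptional loops in which genes of the morning and genes of the evening repress each other, and it keeps running in continuous light. CCA1 and LHY are related MYB transcription factors whose mRNAs peak around dawn, and they repress evening genes. *GI* is an evening gene that they repress, and its protein stabilizes the F-box protein ZEITLUPE and promotes flowering. PRR3 is a pseudo-response regulator of the evening that shields TOC1 from ZEITLUPE. The level of each of these mRNAs in a single harvest therefore moves with the phase of the plants as well as with the strength of expression.

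All values are log2 signals as the authors normalized them, so a difference of 1 is a factor of 2. The median signal of an array lay between 6.12 and 6.23 in total RNA and between 4.68 and 4.99 in PL and NP. Levels were therefore compared between genotypes within one kind of RNA, and across kinds only the differences between genotypes were set against each other. *PAB2* differed by -5.74 in total RNA, -5.13 in PL and -6.09 in NP between mutant and wild-type, so the labels of the genotypes held in each kind of RNA. The leaf marker *RCA*, which encodes Rubisco activase and is the only one of the 8 shoot markers with a probe set named here, lay between 14.24 and 14.37 in total RNA. On the PL and NP arrays it lay between 3.40 and 4.63, below the array medians, in both genotypes alike. *CAT3* and *TIC*, from the lists of clock and output genes, stood likewise at 12.77 to 13.54 and 8.67 to 9.22 in total RNA and at no more than 2.84 and 3.55 in the fractions. These mRNAs thus differ in signal between total RNA and fractions in both genotypes, and the part of this in the contrasts between kinds of RNA below was not tested. Of 11 root markers 3 were measured, and no marker of either list passed the FDR between genotypes. All 3 root markers read lower in total RNA of the mutant on average. AT5G17820 came near the threshold, with a difference of -0.86 in total RNA (FDR = 0.0519 by limma, 3 of 3 pairs). In PL the root markers did not move together. AT5G17820 differed by -0.50 (FDR = 0.350 by limma, lower in 4 of 4 pairs) and *PYK10* by -0.39 (lower in 4 of 4 pairs). *EXPA7* differed by 0.21 (higher in 3 of 4 pairs). The part of root RNA in the differences below was not tested. These are bulk samples, in which fewer cells of a type and less RNA per cell cannot be told apart.

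In total RNA the dawn genes were higher in the mutant and *GI* was lower. *CCA1* read 8.06, 7.37 and 8.43 in the wild-type replicates 1 to 3 and 8.96, 8.86 and 9.08 in the mutant. Every mutant sample thus lay above every wild-type sample, and the mutant replicates lay within a narrow range while those of the wild-type spread. The difference was 1.02 (SE 0.22, 2.02-fold, FDR = 0.0414 by limma, higher in 3 of 3 pairs). *LHY* read 9.82, 9.54 and 10.11 in the wild-type and 10.63, 10.54 and 10.86 in the mutant. Again the groups did not overlap, and wild-type replicate 2 was the lowest sample for both genes. *LHY* rose by 0.85 (SE 0.15, 1.80-fold, FDR = 0.0185 by limma, higher in 3 of 3 pairs).

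*GI* went the other way, with 8.08, 8.60 and 8.35 in the wild-type and 7.67, 7.28 and 7.62 in the mutant. The groups were apart here too, with replicate 2 the highest wild-type sample and the lowest mutant sample. *GI* fell by 0.82 (SE 0.15, 1.76-fold, FDR = 0.0232 by limma, lower in 3 of 3 pairs). *PRR3* read 6.88, 6.38 and 6.88 in the wild-type and 7.07, 7.15 and 6.64 in the mutant, and these ranges overlapped. Its difference was 0.24 (SE 0.17, FDR = 0.460 by limma), with an interval from -0.14 to 0.63.

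Thus 3 of the 4 genes passed the false discovery rate (FDR) of 0.05 in total RNA, against 3.89% of all probe sets. *CCA1* also passed the 2-fold criterion, against 0.536%. Both counts include *CCA1*, named through the study's table of genes changed on these arrays, so its part in them is not independent evidence. All 4 genes were chosen with earlier results of these data known. These counts and those below are therefore descriptions, not independent evidence. The share of all probe sets whose mutant samples all lay above the wild-type was 11.7%, and below it 15%, so with 3 replicates a lack of overlap alone is common. Without replicate 1 *CCA1* and *LHY* differed by 1.07 and 0.88 with FDR = 0.181 and 0.134 (limma). Without replicate 2 they differed by 0.78 each with FDR = 0.0982 and 0.0956 (limma). *GI* differed by -0.57 without replicate 2 (FDR = 0.123) and by -0.86 without replicate 3 (FDR = 0.0928 by limma).

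**Figure D1:**
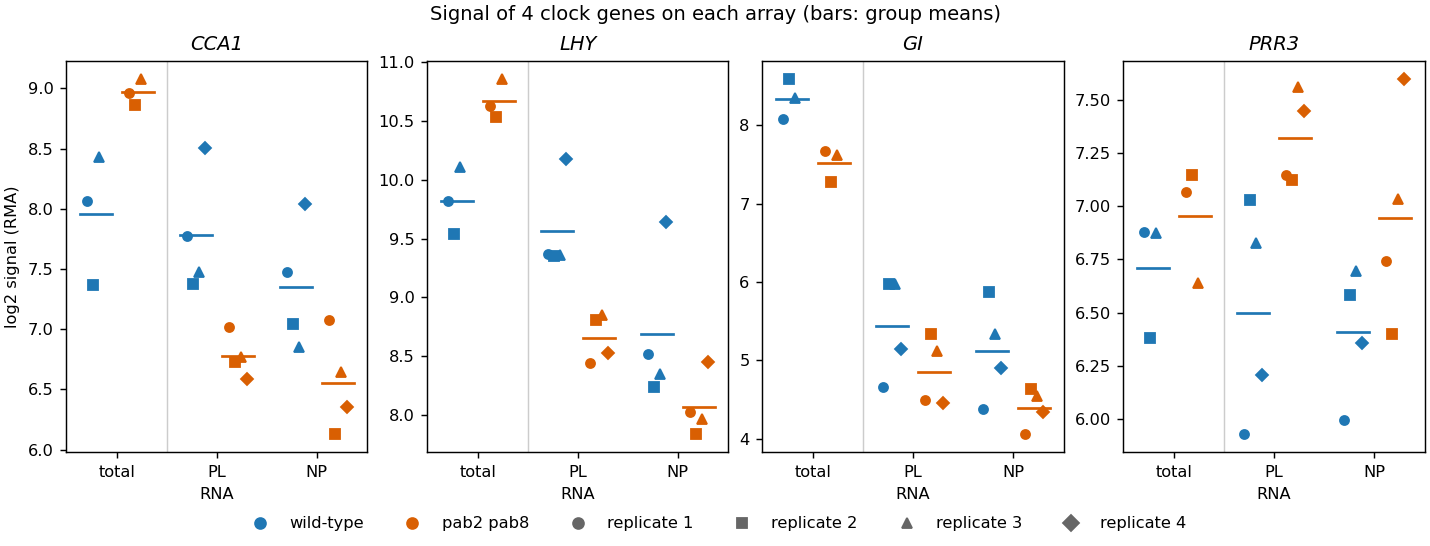
Log2 RMA signal (vertical axis) of *CCA1*, *LHY*, *GI* and *PRR3* on every array, by kind of RNA (horizontal axis), with wild-type in blue, *pab2 pab8* in orange, a marker shape per replicate and a bar at each group mean. For *CCA1* and *LHY* the mutant samples sit above the wild-type in total RNA and below it in PL. The mean of *GI* is lower in the mutant throughout, but its samples overlap between genotypes in PL and NP. The vertical scales differ between genes, and levels of total RNA are not comparable with those of the fractions.

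In polysomal RNA the direction for both dawn genes was turned around. *CCA1* read 7.77, 7.38, 7.48 and 8.50 in the wild-type replicates 1 to 4 and 7.02, 6.73, 6.77 and 6.59 in the mutant. All 4 mutant samples lay below all 4 wild-type samples. The difference was -1.01 (SE 0.23), lower in 4 of 4 pairs, with FDR = 0.173 by limma without a term for the replicate and FDR = 0.0185 with the replicate number as a block. *LHY* read 9.37, 9.35, 9.36 and 10.18 in the wild-type and 8.44, 8.81, 8.85 and 8.53 in the mutant, again with no overlap. Its difference was -0.90 (SE 0.20), lower in 4 of 4 pairs, with FDR = 0.158 by limma and 0.0184 with the block.

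*GI* read 4.66, 5.98, 5.97 and 5.15 in wild-type PL and 4.49, 5.33, 5.12 and 4.45 in the mutant. The groups overlapped, because replicates 1 and 4 were low in both genotypes, but the mutant was lower in 4 of 4 pairs. The difference was -0.59 (SE 0.33), with FDR = 0.806 by limma and 0.0232 with the block. *PRR3* read 5.93, 7.03, 6.83 and 6.21 in the wild-type and 7.15, 7.12, 7.56 and 7.45 in the mutant, so that every mutant sample was above every wild-type sample. It differed by 0.82 (SE 0.24), higher in 4 of 4 pairs, with FDR = 0.324 by limma and 0.0282 with the block, although replicate 2 contributed a difference of only 0.10.

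Without the block 0 of the 4 genes passed in PL by limma, against 0.207% of all probe sets, while 3 of 4 had an unadjusted p below 0.05, against 7.6%. With the block all 4 passed, against 4.48% of all probe sets, again for genes chosen with earlier results of these data known. The plants of one replicate number were grown together, and the block takes out what they share. Lack of overlap was rarer with 4 replicates than in total RNA, at 2.59% of probe sets with the mutant below and 2.42% with the mutant above. Replicate 4 carried the largest differences for the dawn genes, -1.92 for *CCA1* and -1.64 for *LHY*, and without it the PL differences were -0.70 and -0.66.

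The non-polysomal samples followed the PL samples in direction. *CCA1* read 7.47, 7.05, 6.85 and 8.04 in the wild-type and 7.08, 6.13, 6.65 and 6.36 in the mutant. *LHY* read 8.52, 8.24, 8.35 and 9.64 in the wild-type and 8.02, 7.84, 7.97 and 8.45 in the mutant. Both were lower in the mutant in 4 of 4 pairs, with mean differences of -0.80 (SE 0.27) and -0.62 (SE 0.28), but the ranges of the groups overlapped. Without replicate 4 the NP differences were -0.50 for *CCA1* and -0.43 for *LHY*.

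*GI* read 4.38, 5.87, 5.34 and 4.90 in wild-type NP and 4.06, 4.63, 4.55 and 4.34 in the mutant, lower in 4 of 4 pairs with a mean difference of -0.73 (SE 0.27). *PRR3* read 5.995, 6.59, 6.70 and 6.36 in the wild-type and 6.74, 6.40, 7.04 and 7.60 in the mutant, higher in 3 of 4 pairs with a mean difference of 0.54 (SE 0.25), or 0.30 without replicate 4. None of the 4 passed in NP by limma, with FDR from 0.469 to 0.624 without and from 0.0955 to 0.313 with the block, against 0.0747% and 0.642% of all probe sets. At an unadjusted p below 0.05, 3 of the 4 would have, against 8.02% of all probe sets, the exception being *PRR3*.

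**Figure D2:**
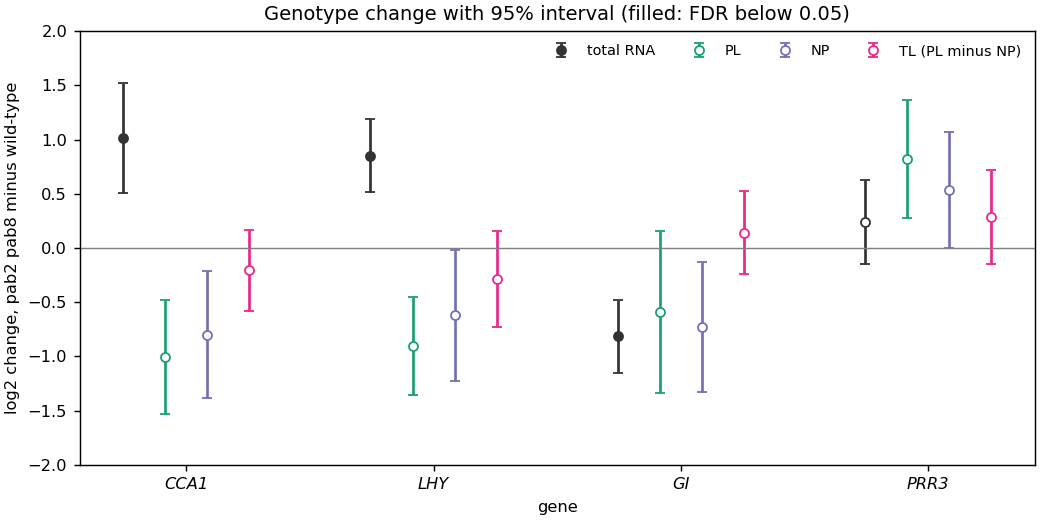
Difference in log2 signal between *pab2 pab8* and wild-type (vertical axis) for each gene, in total RNA (n = 3 each), PL and NP (n = 4 each) and in the translation state TL (n = 4 each), with 95% intervals from limma without the block. Filled points have an FDR below 0.05. *CCA1* and *LHY* lie at 1.02 and 0.85 in total RNA and below 0 in PL and NP, and all 4 intervals of TL contain 0.

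The genotype difference in total RNA was tested against that in the fractions, in a fit over all 22 arrays. This asks whether these differ, not whether their signs are opposite. For *CCA1* the genotype difference in total RNA exceeded the mean of those in PL and NP by 1.92 (SE 0.36, FDR = 0.0186 by limma). For *LHY* the excess was 1.61 (SE 0.33, FDR = 0.0346). This fit counts PL and NP of one gradient as separate samples. With each gradient counted once, as the mean of its PL and NP, both genes missed the threshold narrowly, with FDR = 0.0570 for *CCA1* and 0.0520 for *LHY* (limma). Against NP alone they had 0.0844 and 0.158, and against PL alone 0.0423 and 0.0544. For *GI*, lower in the mutant in all 3 kinds of RNA, it was -0.16 (interval -0.996 to 0.68), and for *PRR3* it was -0.44 (interval -1.13 to 0.26).

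Pair by pair, the mutant exceeded the wild-type in total *CCA1* by 0.90, 1.49 and 0.65 in replicates 1 to 3. In the mean of PL and NP the same pairs differed by -0.57, -0.78 and -0.46, and replicate 4, without total RNA, by -1.80. For *LHY* the pairs differed by 0.80, 1.00 and 0.75 in total RNA and by -0.71, -0.47, -0.45 and, in replicate 4, -1.42 in the fractions. The signs were thus opposite in each of the 3 pairs that had all kinds of RNA. With replicates 1 to 3 alone the excess was 1.62 for *CCA1* (FDR = 0.0324) and 1.39 for *LHY* (FDR = 0.00251 by limma). It stayed above 1.39 but lost the threshold without replicate 1, 2 or 3, with FDR from 0.0970 to 0.308 for *CCA1* and from 0.290 to 0.410 for *LHY*.

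In the fit of all arrays this difference between kinds of RNA passed the FDR for 2 of the 4 genes, against 0.33% of all probe sets, and with each gradient counted once for 0 of the 4, against 0.242%. In 0.224% of probe sets, 51 in number, it passed with the mutant higher in total RNA and lower in the fractions. The change of *CCA1* in total RNA enters this test and is not independent evidence. Over all probe sets the genotype difference in total RNA and the mean of those in PL and NP had Pearson r = 0.32 and Spearman rho = 0.21, a description across probe sets that share arrays. Total RNA was collected alongside the fractions, but the deviations of total RNA samples from their group means did not go with those of the fractions of the same number. Across probe sets these correlated at -0.19 to 0.10 for equal numbers within a genotype and at -0.22 to 0.22 for unequal numbers. Whether total RNA and fractions of a number came from the same harvest was not tested. As with *RCA*, the place of *GI* on the arrays differed between kinds of RNA: it lay above the array medians in total RNA, at 7.28 to 8.60, and around the medians in the fractions, at 4.06 to 5.98.

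**Figure D3:**
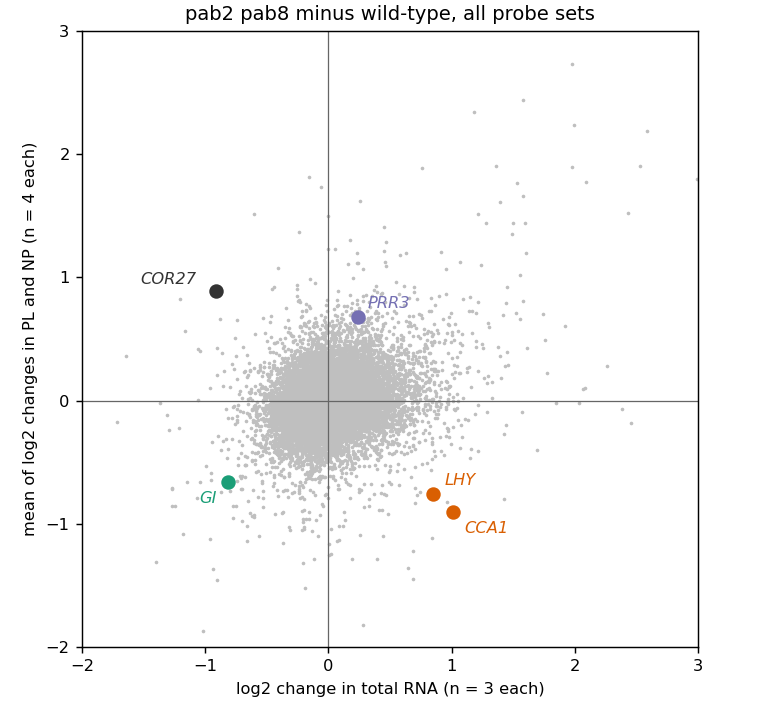
Difference in log2 signal between *pab2 pab8* and wild-type in total RNA (horizontal axis) against the mean of the differences in PL and NP (vertical axis) for all probe sets in grey, with named genes in colour. *CCA1* and *LHY* lie at the lower right, higher in total RNA and lower in the fractions, *COR27* lies at the upper left, and *GI* is lower in both. The axes run from -2 to 3, and 10 probe sets lie outside them.

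The translation state (TL) of an mRNA is the log2 PL signal minus the log2 NP signal within a replicate of a genotype. The arrays were normalized, so a high TL means more polysomal than other mRNAs and does not give the share on polysomes. *LHY* had a TL of 0.85, 1.11, 1.01 and 0.53 in wild-type replicates 1 to 4 and of 0.42, 0.97, 0.89 and 0.08 in the mutant. Replicate 4 was the lowest in both genotypes. The wild-type mean of 0.88 ± 0.25 (SD, n = 4) lay above the upper quartile of all probe sets, 0.32. *CCA1* had 0.30, 0.33, 0.63 and 0.46 in the wild-type and -0.06, 0.60, 0.12 and 0.23 in the mutant, a lower value in 3 of 4 pairs.

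*GI* had a TL of 0.28, 0.10, 0.63 and 0.25 in the wild-type and of 0.43, 0.70, 0.58 and 0.11 in the mutant. *PRR3* had -0.07, 0.44, 0.13 and -0.15 in the wild-type and 0.40, 0.73, 0.53 and -0.15 in the mutant. The 4 wild-type values of *LHY* exceeded those of each of the other genes in 4 of 4 replicates. Among the others the order was not kept in every replicate, with *CCA1* above *GI* in 3 of 4 and *GI* above *PRR3* in 3 of 4. In the mutant, *LHY* was above *PRR3* in 4 of 4 replicates, above *CCA1* in 3 and above *GI* in 2.

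Between genotypes TL differed by -0.21 for *CCA1* (interval -0.58 to 0.17, FDR = 0.791 by limma) and by -0.28 for *LHY* (interval -0.73 to 0.16, FDR = 0.753). It differed by 0.14 for *GI* (interval -0.24 to 0.52, FDR = 0.872 by limma) and by 0.29 for *PRR3* (interval -0.15 to 0.72, FDR = 0.741). None of the 4 passed by limma, against 0.0308% of all probe sets without and 0.0264% with the block, and none had an unadjusted p below 0.05, against 8.64%. All 4 intervals lie inside a 2-fold change in either direction. The widest of them, that of *LHY*, allows a change of TL as far as -0.73.

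**Figure D4:**
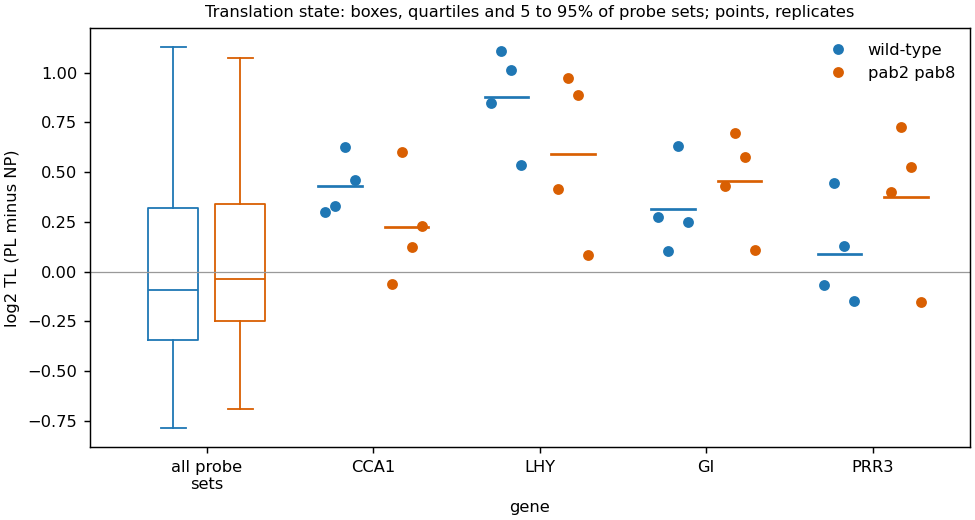
Translation state, log2 PL minus log2 NP (vertical axis), of the 4 genes in each replicate (points) with the mean (bar), beside the distribution over all probe sets (box at the quartiles, whiskers from 5 to 95% of probe sets), with wild-type in blue and *pab2 pab8* in orange. *LHY* has the highest wild-type mean, 0.88, and the genotypes overlap for every gene.

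The replicates were grown at different times, and in the wild-type the 4 genes varied more between them than most mRNAs. There the SD over the 4 replicates of the mean of PL and NP was 0.51 for *CCA1*, 0.53 for *LHY*, 0.63 for *GI* and 0.41 for *PRR3*. The median over all probe sets was 0.17, and the 4 genes stood at the percentiles 95.6, 96.0, 97.8 and 91.3. In the mutant the SDs were 0.28, 0.11, 0.34 and 0.34 against a median of 0.19, at the percentiles 75.6, 19.8, 84.7 and 84.9. The low value of *LHY* holds for the mean of PL and NP. Within each fraction the SD of *LHY* in the mutant was 0.20 in PL and 0.26 in NP. The wild-type of replicate 4 stood apart for the dawn genes, where *CCA1* stood at 8.27 and *LHY* at 9.91, against 7.16 to 7.62 and 8.80 to 8.94 in the other wild-type replicates. The mutant of replicate 4 stood at 6.47 and 8.49, against 6.43 to 7.05 and 8.23 to 8.41 in its other replicates.

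*GI* differed between replicates alike in both genotypes. Its mean of PL and NP was 4.52, 5.92, 5.66 and 5.03 in the wild-type and 4.27, 4.98, 4.84 and 4.40 in the mutant, in the same order of replicates. The difference between the highest and the lowest replicate, averaged over genotypes, was 1.06 (FDR = 0.00662 by limma's F test of replicate number). *CCA1*, *LHY* and *PRR3* did not pass this test, with FDR = 0.313, 0.136 and 0.352. So 1 of the 4 genes passed, against 16% of all probe sets. In total RNA, which has no replicate 4, the wild-type kept the order of replicates 2, 3 and 1 and the mutant did not, and the test gave FDR = 0.989 by limma. In NP alone it gave FDR = 0.133.

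**Figure D5:**
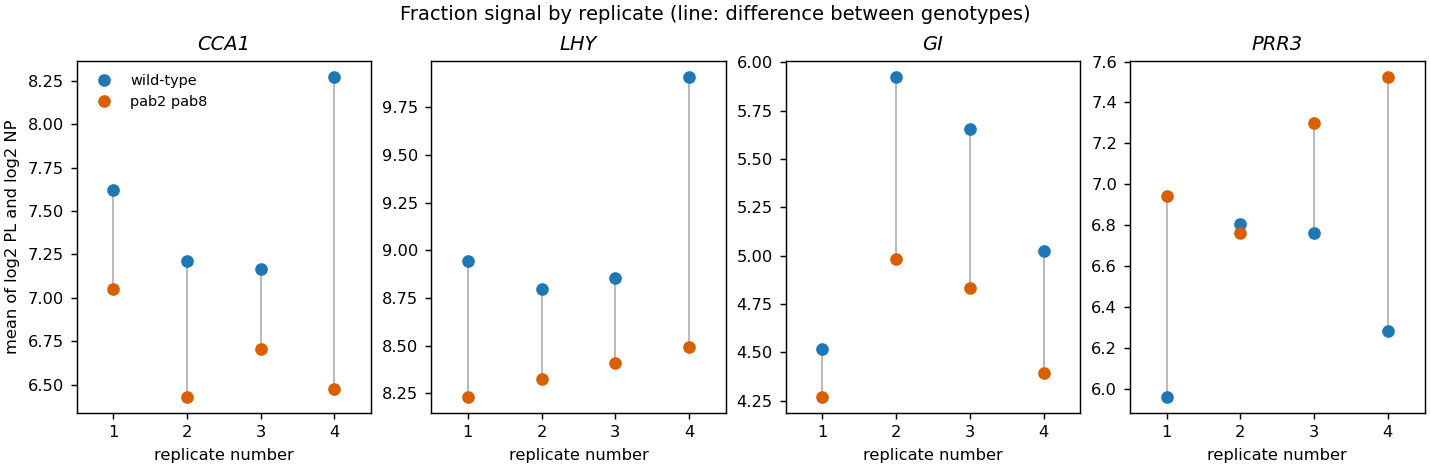
Mean of log2 PL and log2 NP (vertical axis) of each gene by replicate number (horizontal axis), with wild-type in blue, *pab2 pab8* in orange and a line joining the genotypes grown together. For *CCA1* and *LHY* the widest gap is in replicate 4, where the wild-type stands at 8.27 and 9.91, while *GI* has the same order of replicates in both genotypes. *PRR3* is nearly equal between genotypes in replicate 2.

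Over the replicates of the fractions the genes were also set against each other, as a description with no test. *CCA1* and *LHY* correlated at r = 0.95 over the 4 wild-type replicates and at -0.68 over the 4 mutant replicates. In the mutant *LHY* spanned a small range (SD 0.11), while *CCA1* did not (SD 0.28). *GI* and *PRR3* correlated at 0.99 in the wild-type and at -0.34 in the mutant. Each value rests on 4 points taken from the same 8 arrays.

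Of 46 further genes of the clock and its output, 11 have a probe set named here, 8 of them by the array annotation. They are 1 of 12 morning genes, none of 9 evening genes, 3 of 10 other clock genes and 7 of 15 output genes. In total RNA 1 of the 11 was higher at the FDR and 1 was lower, against 2.44% and 1.45% of all probe sets. The one that was higher, *PCC1*, has a name here only because the study listed it as changed on these arrays, so its call is not independent evidence. The median difference of the 11 was -0.03, as it was over all probe sets. In PL, NP and TL, 0 of the 11 passed by limma, against 0.207%, 0.0747% and 0.0308% of all probe sets. At an unadjusted p below 0.05 they were 1, 1 and 2 of the 11, against 7.6%, 8.02% and 8.64%. Some of the 11 lay far down on the fraction arrays, with *CAT3*, a catalase gene, at 2.29 to 2.84, *TIC* at 2.90 to 3.55 and AT1G69570 at 2.70 to 3.92, below the array medians, where a change is hard to measure.

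The gene that was lower is *COR27*, a cold-regulated gene of the clock that represses evening genes at night. It read 7.61, 7.62 and 7.74 in wild-type total RNA and 6.54, 6.88 and 6.80 in the mutant, without overlap. It fell by 0.92 (SE 0.11, 1.89-fold, FDR = 0.00415 by limma). In NP, by contrast, it read 5.96, 6.63, 6.10 and 5.66 in the wild-type and 6.94, 7.33, 7.49 and 7.49 in the mutant.

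All mutant NP samples of *COR27* thus lay above the wild-type, by 1.22 on average (SE 0.22, FDR = 0.0752 by limma), as in 1.6% of all probe sets. In PL, where it read 5.27, 5.80, 5.65 and 5.14 in the wild-type and 5.83, 5.94, 6.19 and 6.11 in the mutant, the difference was 0.55 (SE 0.16, FDR = 0.314). The difference in total RNA minus that in the fractions was -1.80 (FDR = 0.00106 by limma, and 0.00468 with each gradient counted once), which is the reverse of the direction of *CCA1* and *LHY* and was passed in this direction, with the mutant lower in total RNA and higher in the fractions, by 0.0528% of all probe sets. Its TL was lower in the mutant in 4 of 4 pairs, with a mean difference of -0.67 (FDR = 0.339 by limma).

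The gene that was higher is *PCC1*, a small defense-related gene under circadian control. It read 9.28, 8.57 and 9.86 in wild-type total RNA and 10.75, 10.66 and 10.38 in the mutant, a difference of 1.36 (SE 0.27, FDR = 0.0299 by limma). Between replicates of the fractions it ranged far more widely, from 4.61 in replicate 1 to 10.58 in replicate 2 of wild-type PL. In the mutant the same replicates read 8.06 and 11.78. The replicates differed by up to 4.59 averaged over genotypes (FDR = 0.000152 by limma's F test).

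*CCR2*, an RNA-binding protein gene of the evening, and AT4G33980 also differed between replicates, by up to 1.38 (FDR = 0.0154 by limma's F test) and 1.18 (FDR = 0.00592). Both were lowest in replicate 1 in the PL samples of each genotype, though AT4G33980 read 2.86 and 2.89 in replicates 1 and 4 of wild-type PL. AT4G33980 was low in the fractions, at 2.86 to 4.74 against array medians of 4.68 to 4.99. *GI* was lowest in replicate 1 in wild-type PL, while its mutant samples of replicates 1 and 4 read 4.49 and 4.45. *CCR2* read 9.08, 10.43, 10.12 and 9.21 in wild-type PL and 9.26, 10.35, 10.34 and 10.76 in the mutant. In total RNA the genotypes differed by -0.53 for *CCR2* (FDR = 0.162 by limma) and by 0.06 for AT4G33980 (FDR = 0.833). For the other clock genes that the naming rule takes, the differences in total RNA were 0.13 for AT5G52660 (FDR = 0.453 by limma), -0.30 for *FIO1* (FDR = 0.173) and 0.03 for *XCT* (FDR = 0.896).

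The mRNAs whose pattern over the 8 means of PL and NP was most like each gene were taken from 6410 brighter probe sets with 1 gene. For *CCA1* they were AT1G73750 (Pearson r = 0.99), AT3G52570 (0.97) and AT1G33680 (0.97). For *LHY* they were AT5G55620 (0.98), AT1G07485 (0.97) and AT5G03230 (0.96). For *GI* they were AT5G19540 (0.98), AT2G02160 (0.98) and *FDH* (0.98), which encodes formate dehydrogenase, and for *PRR3* they were AT2G16900 (0.98), AT3G09440 (0.97) and AT3G23300 (0.96). These were picked as the highest among all 6410, over 8 points that share arrays, and are a description only. None of *CCA1*, *LHY* and *PRR3* was among the 3 nearest of another of the 4 genes. *GI* was not bright enough in the fractions to be among the 6410, so it could not have been picked. *CCA1* and *LHY* correlated at 0.90.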

How the data were processed

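The authors read probe set signals from the scans with the affy package and settled on RMA, per the labels and the study's methods, whose notes also name MAS5; no version is given in the sources used here. Their deposited log2 signals, 1 array per sample and 22 arrays, were used as given. The log2 translation states that the authors deposited served as an alternative. That table numbers 5 where the labels number 4, and 4 of its columns were therefore left out. Genotypes were set against each other by lmFit and eBayes of limma 3.58.1 (R 4.3.3), with Benjamini-Hochberg adjustment over 22746 probe sets. A call needs an FDR below 0.05 and 2-fold, and list members were counted at the FDR alone. Summaries used numpy 2.4.6, scipy 1.17.1 and pandas 2.3.3 in Python 3.11.15, and figures matplotlib 3.10.9. The main fits were tested on simulated data, with noise drawn independently for each array. There a log2 difference of 1 was recovered at the FDR in 86% of cases in total RNA and 82% in PL. Recovery was 59% in NP and 48% in TL. It was 68% for total RNA against fractions and 23% for shared replicate differences. A miss in NP, TL or the replicate test therefore does not exclude a 2-fold difference. The fits with the replicate block and the other alternatives were not tested in this way. Precision is limited by the number of arrays.

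Per the labels both genotypes of a replicate grew together and replicates at other times, which pairs samples of equal number. Deviations from group means correlated between equal numbers at 0.428 to 0.797 in PL, 0.286 to 0.382 in NP, 0.052 to 0.135 in TL and -0.164 to 0.211 in total RNA. Alternatives were the replicate block, an eBayes trend, the brighter probe sets, median centring, quantile normalization, other subsets of arrays and leaving out each replicate.

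Probe sets were named by the array annotation (13513 with 1 gene) or the study's tables (432), while 503 have several genes and 8298 are unnamed here. Named are the 4 genes, list members past the FDR, the 2 of each list with the smallest p in total RNA, and the 3 most alike mRNAs. The members, lists and this rule were chosen with earlier results of these data known. Detection calls were not used here.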

Additional observations from a re-analysis of the deposited data

Results flagged for a closer look

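For *CCA1* the genotype difference in total RNA and that in the fractions differed by 1.92 on the log2 scale, by a test of the difference itself (FDR = 0.0186 by limma, all arrays). For *LHY* the same test gave 1.61 (FDR = 0.0346 by limma). With PL and NP of a gradient counted as 1 sample the FDR was 0.0570 and 0.0520. In PL, wild-type replicate 4 stood apart for *LHY*, at 10.18 against 9.35 to 9.37 in the other wild-type replicates, so that its gap made up 0.979 of the group's range, above Dixon's 95% critical value. Of 24 groups examined, 1 was marked in this way, and chance alone marks about 1 in 20.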

How the results depend on the processing

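Over 24 values of the 4 genes and 221 alternatives, 196 kept their direction and side of the FDR, 19 lost it, 4 gained it and 2 changed sign. Some alternatives had little or no room to differ. The authors' TL values nearly repeat the main TL. For total RNA against fractions, leaving out replicate 4 and using replicates 1 to 3 alone are the same fit. The range between replicates is never below 0, so it cannot change sign. The 4 gained are the PL differences with the replicate block (*CCA1* -1.01, *LHY* -0.90, *GI* -0.59, *PRR3* 0.82), which took the count of genes past the FDR from 0 to 4, and with 2-fold to 1. The block changed no other call of these genes. The signs changed without replicate 2, for *PRR3* in total RNA to -0.0225 and for *GI* in TL to -0.013 (range without 1 replicate -0.013 to 0.233). In total RNA 1 gene was called with 2-fold, 3 with no fold criterion and 0 with median centring, where *CCA1* stood at 0.96. Leaving out replicates gave 0 to 1 calls and 0 to 2 genes past the FDR, with *CCA1* at 0.78 to 1.20, *LHY* at 0.78 to 0.90, *GI* at -1.02 to -0.57 and *PRR3* at -0.0225 to 0.48. The difference between total RNA and fractions was 1.82 for *CCA1* and 1.47 for *LHY* against NP alone (0 past the FDR) and 1.76 for *LHY* against PL alone (1 past it). With PL and NP of a gradient averaged, an alternative chosen after seeing the data, it stayed at 1.92 and 1.61 with 0 past the FDR. Leaving out replicates gave 1.62 to 2.25 and 1.39 to 1.77, with 0 to 2 genes past it. The test of shared replicate differences called 0 of the 4 in NP alone (*GI* 1.04), in total RNA alone (*GI* 0.11) and among the brighter probe sets, which leave out *GI*. Fits without 1 replicate had fewer samples, and the cause of the other changes was not tested. In total RNA, with 3 arrays a genotype, leaving out any 1 replicate lost the FDR for at least 1 gene. Whether this came from that replicate or from the fewer samples was not tested.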
